A study of Mus musculus with 4 samples.

Results

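The interferon-stimulated genes are genes that most cells switch on after an interferon binds its receptor. A set of 44 of them, out of 31055 genes counted, was followed in the hippocampus of Dp(10)2Yey mice and their wild-type (WT) littermates. The members were given as a list of gene symbols and found by symbol in the gene table of the files, where all 44 were present. The list was drawn up after Ifit1 had been seen to be lower in both Dp(10)2Yey libraries, and the question was whether that difference extended to the other members and whether few cells carried it. Every comparison of the members between the genotypes below is therefore a description, given as fold changes with standard errors and without a test.

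Dp(10)2Yey mice are a model of Down syndrome and carry a duplication of a segment of mouse chromosome 10 that corresponds to part of human chromosome 21. WT littermates carry no duplication, and all mice were on a C57BL/6J background. Each genotype was represented by 2 male mice aged 3 months, with 1 single-cell library per mouse made from its hippocampi after enzymatic dissociation. The libraries are called WT 1, WT 2, Dp(10)2Yey 1 and Dp(10)2Yey 2, and values of the 4 libraries are given in that order. With 2 libraries against 2, an exact two-sided permutation test cannot give a p below 0.33, and any p-value from a model over all genes measures only the spread between these mice.

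Interferons of type I bind a receptor made of IFNAR1 and IFNAR2, and the kinases on it phosphorylate transcription factors, STAT2 among them. With IRF9 these form a complex, ISGF3, that binds the interferon-stimulated response element in the promoters of its targets. The proteins made in this way sense foreign nucleic acid, block translation and entry of viruses, attach ISG15 to other proteins, cut and load peptides for presentation, and attract T cells. In the brain, microglia and endothelial cells are known to hold these genes at a low resting level and to raise them on infection, injury and ageing. A few members, among them the immunoproteasome subunits and Ifitm3, are made at rest by many cells. Therefore 23 of the 44, chosen as strongly inducible, are also summed as an inducible core. This core holds Ifit1, Ifit2, Ifit3, Ifit3b, Ifi27l2a, Ifi204, Ifi44, Isg15, Irf7, Oasl1, Oasl2, Oas1a, Usp18, Rtp4, Xaf1, Rsad2, Cxcl10, Cmpk2, Ddx58, Ifih1, Zbp1, Dhx58 and Herc6. Not all of them were low in every class here, Xaf1 in oligodendrocytes and Ifi27l2a in border macrophages and neutrophils among them.

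The promoters of 4 core members are shown for the element that ISGF3 recognises, which has a match in 3 of them and none in the fourth. Each runs from 250 bases before to 50 bases after the start of the gene, read on the strand of the gene, from RefSeq on GRCm38.p6. Capitals mark matches to GAAANNGAAA or, for the other strand, TTTCNNTTTC, and matches may overlap. Ifit1 lies on chromosome 19 on the plus strand (chr19:34640639-34640938) and holds 2 separate matches, 104 and 85 bases before the start. Isg15, on the minus strand of chromosome 4 (chr4:156200769-156201068), holds 3 overlapping matches 78, 72 and 66 bases before it. Cxcl10, on the minus strand of chromosome 5 (chr5:92348840-92349139), holds 1 match 213 bases before it, and Xaf1, on the plus strand of chromosome 11 (chr11:72301379-72301678), holds none in this window.
Ifit1: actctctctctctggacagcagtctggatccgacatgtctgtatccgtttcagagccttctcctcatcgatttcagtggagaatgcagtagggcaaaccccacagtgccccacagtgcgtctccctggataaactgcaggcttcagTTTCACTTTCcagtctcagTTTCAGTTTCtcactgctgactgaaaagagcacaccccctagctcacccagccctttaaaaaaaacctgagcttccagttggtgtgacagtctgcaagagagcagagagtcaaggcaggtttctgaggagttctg
Isg15: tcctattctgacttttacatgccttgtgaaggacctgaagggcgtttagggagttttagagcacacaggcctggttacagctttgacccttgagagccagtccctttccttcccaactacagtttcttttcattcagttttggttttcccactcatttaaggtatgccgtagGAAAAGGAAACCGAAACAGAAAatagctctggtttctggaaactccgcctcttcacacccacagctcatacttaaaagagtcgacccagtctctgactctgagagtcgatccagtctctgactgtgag
Cxcl10: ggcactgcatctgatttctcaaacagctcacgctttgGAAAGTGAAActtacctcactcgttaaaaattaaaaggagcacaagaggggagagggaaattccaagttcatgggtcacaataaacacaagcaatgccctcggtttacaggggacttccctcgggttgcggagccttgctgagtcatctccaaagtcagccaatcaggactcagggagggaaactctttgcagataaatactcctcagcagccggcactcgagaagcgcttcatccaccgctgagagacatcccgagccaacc
Xaf1: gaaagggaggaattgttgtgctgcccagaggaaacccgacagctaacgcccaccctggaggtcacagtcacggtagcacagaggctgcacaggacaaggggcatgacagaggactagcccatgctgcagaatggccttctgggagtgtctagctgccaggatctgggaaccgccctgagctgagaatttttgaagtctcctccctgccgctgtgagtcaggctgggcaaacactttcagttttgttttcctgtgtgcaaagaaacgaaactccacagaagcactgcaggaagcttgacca

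A match was found in 1079 of the 27025 genes with a promoter sequence (3.99%). Of the 44 members, 36 had a promoter sequence, and 17 of these held a match (47.2%). In the core 9 of 17 did (52.9%), with 2 matches each in Ifit3, Ifit3b and Oas1a. A match is a run of letters and was not tested for binding.

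The files held 6464 barcodes, of which 6249 were kept (1018, 1682, 1350 and 2199), with 2939108, 6721578, 5008065 and 8838437 UMIs. Median UMIs per barcode were 2081.5, 3688.5, 3386.5 and 3670, so WT 1 was the shallowest library. The duplicated segment was higher in Dp(10)2Yey, with 29 of 31 tested genes above 0 and a median log2 fold change of 0.57, which checks the labels. No member lies in the segment. A total of 8 barcode sequences occurred in more than 1 library. Cell classes were named from known markers of each type, and 11 classes had at least 10 barcodes in every library. They include 2007 microglia, 578 microglia of low UMI number, 969 oligodendrocytes, 269 endothelial cells and 125 ependymal cells. The leading genes of the endothelial class included Rgs5 and Vtn, markers of pericytes and smooth muscle. Such cells were not separated from it, so endothelial cells below means this whole class. A cluster of 147 barcodes led by Ttr, which encodes the choroid plexus transport protein transthyretin, stayed unnamed. A class of 112 barcodes held border macrophages together with neutrophils. Levels are compared between these 11 classes only. Smaller clusters are left out, among them T cells and NK cells with 3, 2, 6 and 11 barcodes.

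The members were lower in Dp(10)2Yey when all barcodes of a library were summed. In UMIs per 1000000 UMIs of the library or class (CPM), the members stood at 1176 and 1069 CPM in WT and 822 and 1055 CPM in Dp(10)2Yey. The means were 1122 ± 75.5 CPM in WT and 938 ± 165 CPM in Dp(10)2Yey (SD, n = 2 each), a log2 ratio of -0.26. Both Dp(10)2Yey libraries were below both WT libraries, and Dp(10)2Yey 2 was just under WT 2. The ratio was -0.089 without Dp(10)2Yey 1 and -0.45 without Dp(10)2Yey 2. The core was at 281 and 289.7 CPM in WT and 178 and 234 CPM in Dp(10)2Yey, a log2 ratio of -0.47, and here the groups did not overlap. In such a sum, fewer cells of a type and less RNA per cell cannot be told apart, so each class is described next.

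The level of the members differed far more between cell classes than between genotypes. The members were at 4343 and 4148 CPM in WT and 4130.1 and 3966 CPM in Dp(10)2Yey in endothelial cells and at 5254 and 3994 CPM in WT and 6957 and 4363 CPM in Dp(10)2Yey in the border macrophage and neutrophil class. The cluster led by Ttr held 2145 and 6973 CPM in WT and 1363 and 2920.5 CPM in Dp(10)2Yey and ependymal cells 2556 and 1609 CPM in WT and 1429 and 1852 CPM in Dp(10)2Yey. These 4 classes were thus above the microglia in every library, which held 1299 and 1322 CPM in WT and 1135 and 1265 CPM in Dp(10)2Yey, and the low-UMI microglia, at 977 and 1101 CPM in WT and 981 and 1153 CPM in Dp(10)2Yey. Astrocytes (311 and 442 CPM in WT and 361 and 370.4 CPM in Dp(10)2Yey), oligodendrocyte precursors (370.1 and 419.6 CPM in WT and 412 and 429 CPM in Dp(10)2Yey) and oligodendrocytes (346 and 275 CPM in WT and 289 and 312 CPM in Dp(10)2Yey) were lower and had neighbouring ranges that overlapped. Neurons had the lowest mean at 107 and 109 CPM in WT and 136 and 124 CPM in Dp(10)2Yey, and immature neurons overlapped them at 115 and 162 CPM in WT and 201 and 189 CPM in Dp(10)2Yey. By number, microglia supplied more of the counts than any other class, with 42.2, 42.3, 46.9 and 46.3% of all member UMIs, against 24.3, 18.6, 16.9 and 14.1% from endothelial cells.

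**Figure D1:**
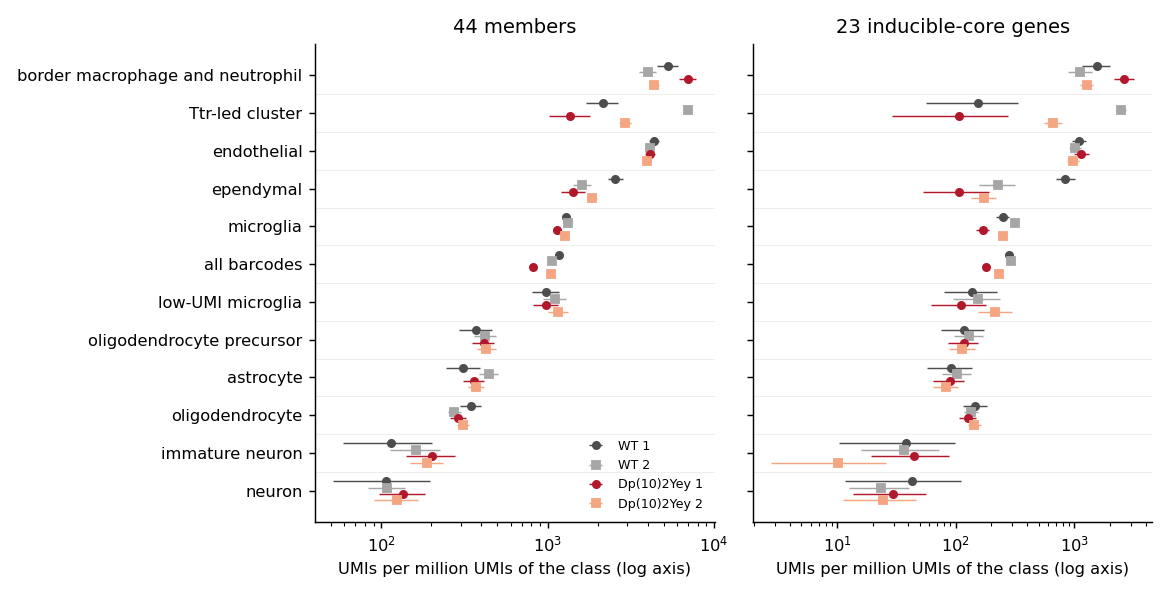
Summed member level in CPM, UMIs per 1000000 UMIs of the class (log axis), one point per library, by cell class and genotype. Endothelial cells sit between 3966 and 4343 CPM and microglia between 1135 and 1322, with the largest spread in the ependymal and Ttr-led classes.

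Within microglia the difference between the genotypes was small. The WT mean was 1311 ± 16.9 CPM and the Dp(10)2Yey mean 1200.3 ± 92.0 CPM (SD, n = 2 each), a log2 ratio of -0.13, with both Dp(10)2Yey libraries below both WT libraries. The ratio was -0.051 without Dp(10)2Yey 1 and -0.21 without Dp(10)2Yey 2. The microglial core was at 248 and 315 CPM in WT and 168 and 250.1 CPM in Dp(10)2Yey (log2 ratio -0.43), and Dp(10)2Yey 2 exceeded WT 1. In endothelial cells, the ratio was -0.069 for all members and 0.0078 for the core, with core levels of 1097 and 1014 CPM in WT and 1147 and 976 CPM in Dp(10)2Yey that overlapped.

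Ependymal cells (-0.34 for the members, -1.93 for the core) and the cluster led by Ttr (-1.09 and -1.78) had the lowest ratios, and single barcodes carried much of them. In WT 1, 1 ependymal barcode held 80 of the 118 core UMIs of its class (67.8%). Without barcodes of at least 6 core genes, which were found among ependymal cells of the WT libraries only (2 each), the ependymal core was at 153 and 174 CPM in WT and 106 and 173 CPM in Dp(10)2Yey, a log2 ratio of -0.23, and the ratio of the members was 0.29. Leaving out WT 1 as a whole gave -0.70 for the core and 0.028 for the members. The core in the Ttr-led cluster was at 153 and 2491 CPM in WT and 107 and 663 CPM in Dp(10)2Yey, and 1 barcode of WT 2 held 318 of the 398 core UMIs and 738 of the 1114 member UMIs of the cluster in that library. Without barcodes of at least 6 core genes (0, 2, 0 and 2) the ratio was -0.99 for the core and -0.50 for the members. Without WT 2 it was 1.33 and -0.0021, so that library decided the direction of the core. At a finer clustering (resolution 0.5 in place of 0.2) this cluster split into 126 choroid plexus barcodes and 21 led by Mgp, Prg4 and Igfbp6, of which 3 and 11 were in WT and 0 and 7 in Dp(10)2Yey. Of the members 5 were tested in the joint cluster, with a median log2 fold change of -2.02, the lowest 4 of them between -2.35 and -1.96. In the choroid plexus barcodes alone only Ifi27 was tested, at -0.26, where it had been -0.12 in the joint cluster, so the other 4 cannot be compared. The border macrophage and neutrophil class (0.29), neurons (0.27) and immature neurons (0.50) were higher in Dp(10)2Yey. In the first of these 1 of the 16 barcodes of Dp(10)2Yey 1 held 132 of its 267 member UMIs (49.4%), and the ratio was 0.020 without barcodes of at least 6 core genes and -0.084 without Dp(10)2Yey 1. There S100a8, a neutrophil gene, was at 0 in both WT libraries and at 26973 and 7722 normalised CPM in Dp(10)2Yey, and its part in the member level was not tested. In immature neurons 2 chemokine genes of myeloid cells were higher in both Dp(10)2Yey libraries. Ccl3 was at 0 and 0 normalised CPM in WT and 392 and 200 in Dp(10)2Yey, and Ccl4 at 11.3 and 0 in WT and 983 and 416 in Dp(10)2Yey. Their part in the member level was not tested either. The ratios of both neuron classes rested on low counts, and only 1 member was tested in each. Immature neurons held 12 and 35 member UMIs in WT and 36 and 74 in Dp(10)2Yey. Neurons numbered 49 and 142 barcodes in WT and 142 and 98 in Dp(10)2Yey, with a median of 27.8% mitochondrial UMIs.

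The shares of some classes with high member levels differed between the libraries. Endothelial barcodes made up 5.21 and 4.70% of the WT libraries and 3.93 and 3.82% of the Dp(10)2Yey libraries, and ependymal barcodes 5.80, 0.89, 1.26 and 1.55%. With every library given the same mean share of each class, the log2 ratio of the members went from -0.26 to -0.13 and that of the core from -0.47 to -0.30. With the observed shares and the same mean level in each class it was -0.11 for both. Without the endothelial, ependymal and Ttr-led classes it was -0.046 for the members and -0.18 for the core. For Ifit1 the log2 ratio was -1.84 as observed, -1.21 with the same class shares, -0.39 with the same class levels and -1.75 without these 3 classes. The last ratio rested on low levels, 3.51 and 2.63 CPM in WT and 1.06 and 0.757 CPM in Dp(10)2Yey. In WT 2, 1 microglial barcode held 13 of the Ifit1 UMIs that remained.

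Ifit1 encodes a protein that binds viral RNA lacking the cap methylation of the host and blocks its translation. Over all barcodes it had 66 and 83 UMIs in WT and 30 and 33 UMIs in Dp(10)2Yey, or 22.5 and 12.3 CPM in WT and 5.99 and 3.73 CPM in Dp(10)2Yey. Both Dp(10)2Yey libraries were below both WT libraries, and the log2 fold change of Dp(10)2Yey over WT was -1.84 ± 0.38 (SE). Values with ± after a fold change are standard errors from here on, and values in parentheses after a level are log2 fold changes. Endothelial cells supplied 104 of the 212 UMIs (49.1%), and in that class the level was 150.1 and 105 CPM in WT and 131 and 57.4 CPM in Dp(10)2Yey. There the groups overlapped, with Dp(10)2Yey 1 above WT 2, and the log2 fold change was -0.55 ± 0.38. Without Dp(10)2Yey 2 the endothelial value was 0.065, so that library decided its direction. Outside the endothelial class Ifit1 was at 13.5 and 7.66 CPM in WT and at 1.65 in both Dp(10)2Yey libraries.

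Few barcodes carried much of the Ifit1 of the WT libraries. Ependymal cells had 28 and 2 UMIs in WT and 3 and 2 UMIs in Dp(10)2Yey, the cluster led by Ttr 0 and 31 UMIs in WT and 0 and 6 UMIs in Dp(10)2Yey, and microglia 4 and 14 UMIs in WT and 2 and 1 UMIs in Dp(10)2Yey. In WT 1, 1 ependymal barcode of 29531 UMIs held 22 Ifit1 UMIs, 33.3% of the library. In WT 2, 1 barcode of the Ttr-led cluster with 50429 UMIs held 28 (33.7%) and 1 microglial barcode of 6721 UMIs held 13. The highest barcodes in Dp(10)2Yey held 4 and 8, the latter an endothelial cell. Each of the 3 WT barcodes held 15 to 19 of the 23 core genes, and none was called a doublet, although the first 2 were deeper than the median barcode of every class. After each barcode was thinned to 1000 UMIs, with shallower barcodes left out, the log2 fold change over all barcodes was -0.64 ± 0.64. Ifit1 was found in 24 and 28 barcodes in WT and in 19 and 21 in Dp(10)2Yey.

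**Figure D2:**
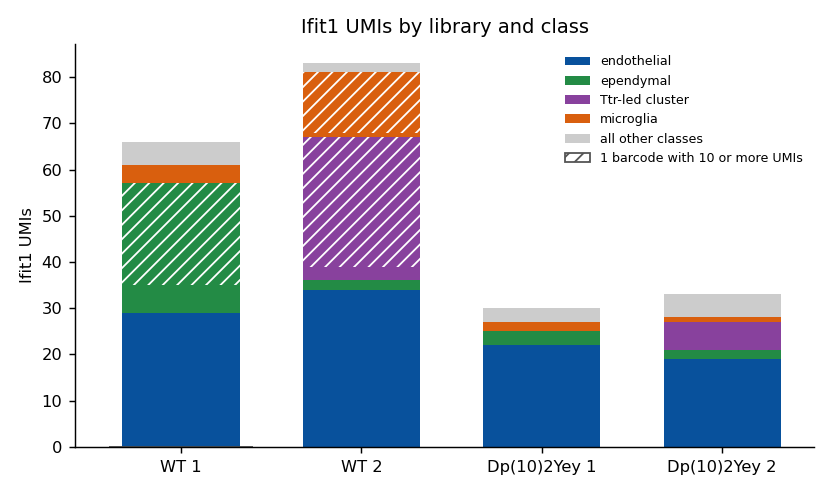
Ifit1 UMIs of each library split by cell class, with the barcodes of 10 or more UMIs marked. The 3 marked barcodes, with 22, 28 and 13 UMIs, are all in the WT libraries, where the totals are 66 and 83 against 30 and 33 in Dp(10)2Yey.

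Over all barcodes, the contrast on which the list was chosen, most fold changes of the members were below 0. Of 42 members that passed the filter on low counts, which was applied over all libraries, 37 had a log2 fold change below 0 and the median was -0.38, against -0.0053 over all 13803 genes. Both Dp(10)2Yey libraries were below both WT libraries for 24 members, where 14% of all genes were, and above them for 1 (Slfn2), where 12.8% were. The list was chosen on this contrast, and a member high in only a few WT barcodes can pass the filter through them, so nothing is read from these counts. After Ifit1, the lowest fold changes were those of Ifi44 (-1.69 ± 0.52), Ifit3b (-1.36 ± 0.35), Usp18 (-1.20 ± 0.46), Irf7 (-1.11 ± 0.42), Rtp4 (-0.93 ± 0.28) and Ifit3 (-0.87 ± 0.27). Without barcodes of at least 6 core genes, Ifit3b (0.11 ± 0.50) and Ifit3 (0.042 ± 0.43) turned in direction. Rtp4 was then at -0.39 ± 0.35 and Usp18 at -1.16 ± 0.59, and Ifi44 and Irf7 did not pass the filter. Oas1a and Oasl1, with 16 UMIs each, did not pass the filter.

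The 2 classes that supplied most member UMIs were fitted apart, with partly other members past the filter. In microglia 32 members were tested, 19 were below 0 and the median was -0.051 (0.0020 over 9092 genes). Both Dp(10)2Yey libraries were lower for 9 members (15.3% of all genes) and higher for 3 (14.6%), namely Ifi27, Isg20 and Stat2. In endothelial cells 29 were tested, 18 were below 0 and the median was -0.18 (0.0066 over 4501 genes). There 4 members, Ifi35, Rtp4, Lgals3bp and Samd9l, were lower in both Dp(10)2Yey libraries (16.3% of all genes) and 3, Oasl2, Ifih1 and Sp100, were higher (17.4%). Rtp4 was the only member lower without overlap in both classes and over all barcodes.

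**Figure D3:**
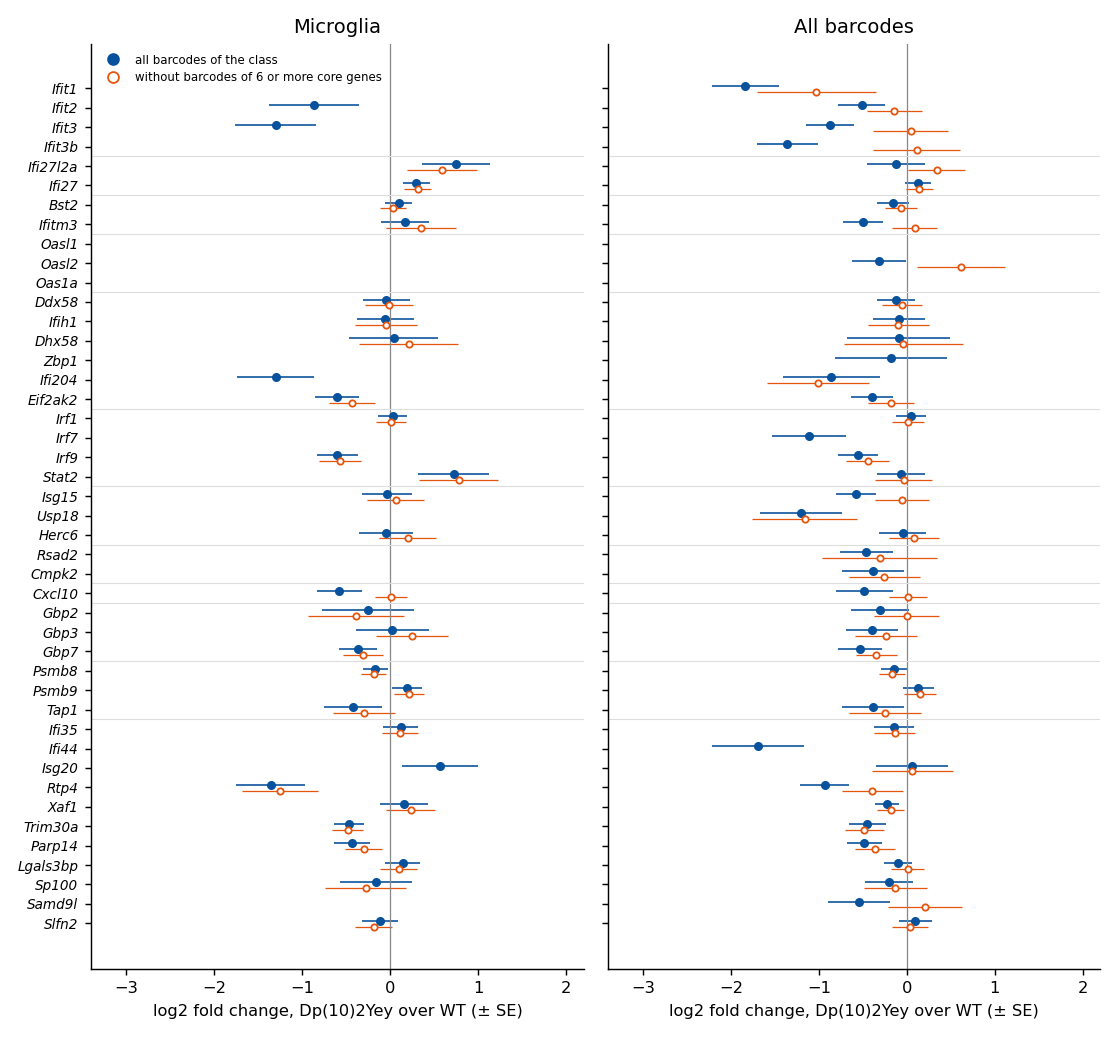
Log2 fold change of each tested member, Dp(10)2Yey over WT, with its standard error, in microglia (left) and over all barcodes (right). Filled points are fits with all barcodes, and open points are fits without barcodes of at least 6 core genes. Of the filled points, 37 of 42 lie below 0 over all barcodes and 19 of 32 in microglia.

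The IFIT proteins are encoded side by side on chromosome 19 and act as RNA-binding complexes. Microglial Ifit2 was at 6.23 and 10.9 CPM in WT and 1.18 and 7.33 CPM in Dp(10)2Yey (-0.87 ± 0.51). Ifit3, which stabilises IFIT1, was at 5.34 and 15.7 CPM in WT and 3.53 and 5.57 CPM in Dp(10)2Yey (-1.30 ± 0.46) and its close copy Ifit3b had 2 and 20 UMIs in WT and 0 and 3 UMIs in Dp(10)2Yey, too few to fit. WT 2 was the highest library for each of these genes, and Dp(10)2Yey 2 was above WT 1 for Ifit2 and Ifit3. Reads that fit Ifit3 and Ifit3b equally are not assigned by the counting, so both levels are uncertain. Ifit2 was highest not in a vascular or immune class but in oligodendrocyte precursors, at 42.2 and 43.2 CPM in WT and 23.3 and 35.0 CPM in Dp(10)2Yey from 56 UMIs. There both Dp(10)2Yey libraries were lower, as 15.2% of all genes were in that class.

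The ISG15 system consists of Isg15, a ubiquitin-like protein, the ligase Herc6 that attaches it in mice, and the protease Usp18 that removes it and dampens the receptor. Isg15 in microglia was at 27.6 and 21.3 CPM in WT and 15.9 and 28.7 CPM in Dp(10)2Yey, and its log2 fold change was -0.035 ± 0.28. In endothelial cells it was at 254 and 195 CPM in WT and 196 and 190.4 CPM in Dp(10)2Yey (-0.20 ± 0.23). Dp(10)2Yey 2 was the highest library in microglia and the lowest in endothelial cells. Herc6 was at 13.3 and 14.4 CPM in WT and 12.4 and 14.7 CPM in Dp(10)2Yey in microglia (-0.047 ± 0.31), with the Dp(10)2Yey libraries on either side of both WT libraries. Usp18 had 68 UMIs in all, 44.1% of them endothelial and 21 in microglia.

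Among the transcription factors, Irf9, the DNA-binding part of ISGF3, was lower in both Dp(10)2Yey libraries. Its microglial level was 39.1 and 34.4 CPM in WT and 18.8 and 27.9 CPM in Dp(10)2Yey, with a log2 fold change of -0.60 ± 0.23. Stat2, its partner, went the other way at 8.89 and 5.22 CPM in WT and 13.5 and 9.38 CPM in Dp(10)2Yey (0.72 ± 0.40), from 77 UMIs. Both had groups that did not overlap, in opposite directions. Irf1, induced by interferon gamma, was at 77.4 and 99.7 CPM in WT and 86.6 and 98.8 CPM in Dp(10)2Yey (0.027 ± 0.17) in microglia and 58.1 and 119 CPM in WT and 235 and 115 CPM in Dp(10)2Yey in the border macrophage and neutrophil class. Irf7, which amplifies the type I response, was highest in endothelial cells at 62.1 and 40.3 CPM in WT and 23.8 and 48.4 CPM in Dp(10)2Yey from 45 UMIs, and Irf9 there was at 82.8 and 71.4 CPM in WT and 89.1 and 48.4 CPM in Dp(10)2Yey. In those classes the genotypes overlapped for Irf1 and Irf9.

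Sensors of foreign RNA and DNA were low, and the members differed among themselves. Summed over the 6 sensor genes, microglia held 90.7 and 78.8 CPM in WT and 58.9 and 69.2 CPM in Dp(10)2Yey, without overlap. Ddx58, which encodes RIG-I, was at 19.6 and 19.6 CPM in WT and 18.3 and 19.9 CPM in Dp(10)2Yey in microglia (-0.047 ± 0.27). Ifih1, which encodes MDA5, was at 20.5 and 11.7 CPM in WT and 12.95 and 15.8 CPM in Dp(10)2Yey in microglia (-0.056 ± 0.32) and 25.9 and 55.8 CPM in WT and 59.4 and 60.5 CPM in Dp(10)2Yey in endothelial cells (0.44 ± 0.43). Neither gene differed between the genotypes in microglia by more than its standard error. Dhx58, their regulator LGP2, was at 9.78 and 3.48 CPM in WT and 7.65 and 4.98 CPM in Dp(10)2Yey from 49 microglial UMIs. Eif2ak2, the kinase PKR that stops translation on double-stranded RNA, was at 26.7 and 27.4 CPM in WT and 17.7 and 18.5 CPM in Dp(10)2Yey (-0.60 ± 0.25). Ifi204, a DNA sensor of myeloid cells, was at 12.5 and 13.9 CPM in WT and 1.77 and 7.62 CPM in Dp(10)2Yey in microglia (-1.30 ± 0.44). The last 2 genes were lower in both Dp(10)2Yey libraries without overlap. In the border macrophage and neutrophil class Ifi204 was at 145 and 312 CPM in WT and 104 and 159 CPM in Dp(10)2Yey, and each of those libraries was above every library of every other class. Zbp1, a sensor of Z-form nucleic acid, had 40 UMIs in all.

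Bst2 and Ifitm3, which hold budding virus at the membrane and block viral entry, had small fold changes in microglia and endothelial cells. Microglial Bst2 was at 122 and 122 CPM in WT and 118 and 144 CPM in Dp(10)2Yey (0.094 ± 0.15) and Ifitm3 at 16.9 and 20.9 CPM in WT and 17.7 and 25.2 CPM in Dp(10)2Yey (0.17 ± 0.28). Endothelial Ifitm3 was at 1392 and 1312 CPM in WT and 1135 and 1412 CPM in Dp(10)2Yey (-0.087 ± 0.20). Neither gene had a fold change beyond its standard error in these 2 classes. Over all barcodes Ifitm3 was at 176 and 149.8 CPM in WT and 84.9 and 146 CPM in Dp(10)2Yey (-0.50 ± 0.23), and there both Dp(10)2Yey libraries were lower. Its fold change over all barcodes was 0.088 ± 0.26 without barcodes of at least 6 core genes. Without those of at least 4 core UMIs it was -0.026 ± 0.30. In the Ttr-led cluster Ifitm3 was at 51.1 and 1865 CPM in WT and 134 and 352 CPM in Dp(10)2Yey (-2.35 ± 1.30) and Bst2 at 51.1 and 795 CPM in WT and 134 and 158 CPM in Dp(10)2Yey (-2.02 ± 1.09), with WT 2 alone high for both. Bst2 was highest in the border macrophage and neutrophil class, at 1277 and 653 CPM in WT and 417 and 893 CPM in Dp(10)2Yey, where Dp(10)2Yey 1 was the lowest library and WT 1 the highest.

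The Ifi27 family encodes small membrane proteins of mitochondria and the nucleus. Ifi27 was at 80.1 and 74.8 CPM in WT and 100.1 and 92.9 CPM in Dp(10)2Yey in microglia (0.30 ± 0.16), higher in both Dp(10)2Yey libraries. In the Ttr-led cluster it reached 1685 and 714 CPM in WT and 828 and 1555 CPM in Dp(10)2Yey, above all libraries of all other classes. Ifi27l2a was at 21.3 and 7.40 CPM in WT and 14.1 and 26.4 CPM in Dp(10)2Yey in microglia (0.74 ± 0.39) and 929 and 475 CPM in WT and 1772 and 663 CPM in Dp(10)2Yey in the border macrophage and neutrophil class. WT 1 and WT 2 differed by more than the genotypes did for microglial Ifi27l2a.

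Rsad2, or viperin, makes a chain-terminating nucleotide, and Cmpk2 next to it on chromosome 12 makes the substrate. Rsad2 had 1 and 27 UMIs in WT and 0 and 6 UMIs in Dp(10)2Yey in microglia, 27 of 34 of them in WT 2. In endothelial cells it was at 72.5 and 65.1 CPM in WT and 166 and 69.5 CPM in Dp(10)2Yey (0.64 ± 0.42), with Dp(10)2Yey 1 the highest library. Of the OAS family, which makes a messenger that activates RNase L or binds RNA, only Oasl2 passed the filter, and 45.2% of its UMIs were endothelial. It was at 62.1 and 65.1 CPM in WT and 83.2 and 69.5 CPM in Dp(10)2Yey in endothelial cells, and its 2 Dp(10)2Yey libraries were above both WT libraries. Cxcl10, a chemokine that attracts T cells through CXCR3, was found almost wholly in microglia, with 687 of its 704 UMIs there. There it had 61 and 286 UMIs in WT and 86 and 254 UMIs in Dp(10)2Yey, or 54.3 and 124 CPM in WT and 50.6 and 74.5 CPM in Dp(10)2Yey (-0.58 ± 0.26), and every microglial library was above every library of the other classes. WT 2 was the highest and WT 1 lay between the Dp(10)2Yey libraries. A single barcode held 146 of the 286 UMIs of WT 2, and without barcodes of at least 6 core genes the fold change was 0.003 ± 0.18.

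The guanylate-binding proteins attack the vacuoles of intracellular microbes. Gbp7 was at 72.0 and 41.8 CPM in WT and 37.7 and 45.7 CPM in Dp(10)2Yey in microglia (-0.37 ± 0.22) and 228 and 158 CPM in WT and 190.2 and 109 CPM in Dp(10)2Yey in endothelial cells (-0.42 ± 0.32). Gbp3 was at 4.45 and 10.0 CPM in WT and 8.83 and 7.92 CPM in Dp(10)2Yey in microglia and 82.8 and 96.2 CPM in WT and 53.5 and 96.7 CPM in Dp(10)2Yey in endothelial cells, where each library was above those of all other classes. Gbp2 was at 41.4 and 80.7 CPM in WT and 107 and 36.3 CPM in Dp(10)2Yey in endothelial cells from 64 UMIs. In none of these did the genotypes separate within a class. Psmb8 and Psmb9 are subunits of the immunoproteasome and Tap1 carries the peptides into the endoplasmic reticulum. Psmb8 was at 201 and 218 CPM in WT and 175 and 201 CPM in Dp(10)2Yey in microglia (-0.17 ± 0.14), lower in both Dp(10)2Yey libraries with Dp(10)2Yey 2 just under WT 1, and at 174 and 252 CPM in WT and 339 and 263 CPM in Dp(10)2Yey in border macrophages and neutrophils. Psmb9 was at 58.7 and 70.9 CPM in WT and 68.9 and 82.1 CPM in Dp(10)2Yey in microglia (0.19 ± 0.17) and at 87.1 and 148 CPM in WT and 182 and 109.6 CPM in Dp(10)2Yey in the other class. Tap1 was at 30.2 and 13.9 CPM in WT and 13.5 and 16.4 CPM in Dp(10)2Yey in microglia (-0.42 ± 0.33). WT 1 alone was high for Tap1.

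Of the 9 remaining members tested in microglia, 5 were lower in both Dp(10)2Yey libraries after scaling, where 15.3% of all genes were. Rtp4, a chaperone with antiviral activity, was at 16.9 and 11.7 CPM in WT and 3.53 and 6.45 CPM in Dp(10)2Yey (-1.36 ± 0.39) and had the lowest fold change of the 32 tested microglial members. Trim30a, which restrains inflammatory signalling, was at 93.4 and 74.8 CPM in WT and 64.8 and 57.8 CPM in Dp(10)2Yey (-0.46 ± 0.17), and the ADP-ribosyltransferase Parp14 at 53.4 and 40.04 CPM in WT and 37.1 and 32.0 CPM in Dp(10)2Yey (-0.43 ± 0.21). Slfn2, which keeps immune cells quiescent, was at 33.8 and 37.4 CPM in WT and 33.6 and 33.7 CPM in Dp(10)2Yey (-0.12 ± 0.20) and Sp100, of nuclear bodies, at 8.01 and 6.96 CPM in WT and 7.07 and 6.45 CPM in Dp(10)2Yey. For Sp100 only the scaled values separated, and both fold changes were within their standard errors. The apoptosis factor Xaf1 was at 19.6 and 16.5 CPM in WT and 17.7 and 21.7 CPM in Dp(10)2Yey (0.16 ± 0.28), the exonuclease Isg20 at 4.45 and 5.66 CPM in WT and 8.83 and 7.33 CPM in Dp(10)2Yey (0.56 ± 0.43) and Ifi35 at 38.2 and 33.9 CPM in WT and 37.7 and 40.5 CPM in Dp(10)2Yey (0.12 ± 0.20). Lgals3bp, a secreted glycoprotein, was at 78.3 and 62.7 CPM in WT and 94.8 and 63.6 CPM in Dp(10)2Yey (0.14 ± 0.20). None of these 4 was lower in microglia by more than its standard error, and Isg20 was higher in both Dp(10)2Yey libraries from 58 UMIs.

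Several of these genes were highest elsewhere. In endothelial cells Rtp4 was at 82.8 and 99.3 CPM in WT and 71.3 and 69.5 CPM in Dp(10)2Yey (-0.40 ± 0.31), Ifi35 at 119 and 86.9 CPM in WT and 71.3 and 87.7 CPM in Dp(10)2Yey (-0.30 ± 0.31) and Samd9l, an inhibitor of translation, at 62.1 and 58.9 CPM in WT and 53.5 and 45.3 CPM in Dp(10)2Yey (-0.32 ± 0.38). Each was lower in both Dp(10)2Yey libraries, Ifi35 only after scaling. Lgals3bp was at 88.0 and 71.4 CPM in WT and 47.5 and 39.3 CPM in Dp(10)2Yey (-0.89 ± 0.38), also without overlap. Sp100 was at 109 and 105 CPM in WT and 143 and 121 CPM in Dp(10)2Yey, higher in both Dp(10)2Yey libraries, and Xaf1 at 104 and 115 CPM in WT and 113 and 163 CPM in Dp(10)2Yey, with overlap. The highest class of Lgals3bp was the Ttr-led cluster, at 25.5 and 369 CPM in WT and 107 and 51.0 CPM in Dp(10)2Yey, and that of Slfn2 the border macrophage and neutrophil class, at 116 and 148 CPM in WT and 417 and 126 CPM in Dp(10)2Yey. Among classes with at least 10 barcodes in every library, 23 members had their highest mean level in endothelial cells. Another 15 had it in the border macrophage and neutrophil class, 2 each in the Ttr-led cluster and ependymal cells, and 1 each in microglia and oligodendrocyte precursors. For only 7 of the 44 did every library of the highest class exceed every library of the other classes of that size: Gbp3, Stat2, Ifi204, Parp14, Slfn2, Ifi27 and Cxcl10. The few T cells and NK cells are not in this ranking. There Psmb8, Psmb9 and Tap1 summed to 1088 and 1068 CPM in WT and 671 and 1256 CPM in Dp(10)2Yey. The border macrophage and neutrophil class held 261 and 431 CPM in WT and 573 and 395 CPM in Dp(10)2Yey.

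A large share of the inducible-core UMIs of the microglia lay in very few barcodes. The 1% of microglia with the most core UMIs (3, 5, 4 and 8 barcodes) held 30.1, 52.8, 23.4 and 33.1% of them. The 6 genes that define the microglia, counted the same way, gave 2.24 to 2.42%, and members outside the core 6.52 to 10.1%. In WT 2, 50% of the core UMIs lay in 4 of 538 barcodes, where it took 10 of 311 in WT 1, 22 of 373 in Dp(10)2Yey 1 and 20 of 785 in Dp(10)2Yey 2. The variance of core UMIs over their mean was 12.4, 111, 5.39 and 18.6.

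A total of 12 microglia held at least 8 different core genes, 2, 4, 1 and 5 per library, and none held 6 or 7. The richest, in WT 2, held 275 core UMIs of 19 core genes among 6721 UMIs, 38.0% of the core UMIs of all 538 microglia of that library. They included 146 of Cxcl10 and 13 of Ifit1. The richest in the other libraries held 46 (WT 1), 19 (Dp(10)2Yey 1) and 88 (Dp(10)2Yey 2) core UMIs. These barcodes occurred in all 4 libraries of both genotypes, none was called a doublet and none shared its sequence with another library. They held at most 4 endothelial marker UMIs and between 175 and 709 microglial marker UMIs each. Cxcl10 had 0 UMIs in 10 of the 12, which at their depth does not show that it was absent.

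**Figure D4:**
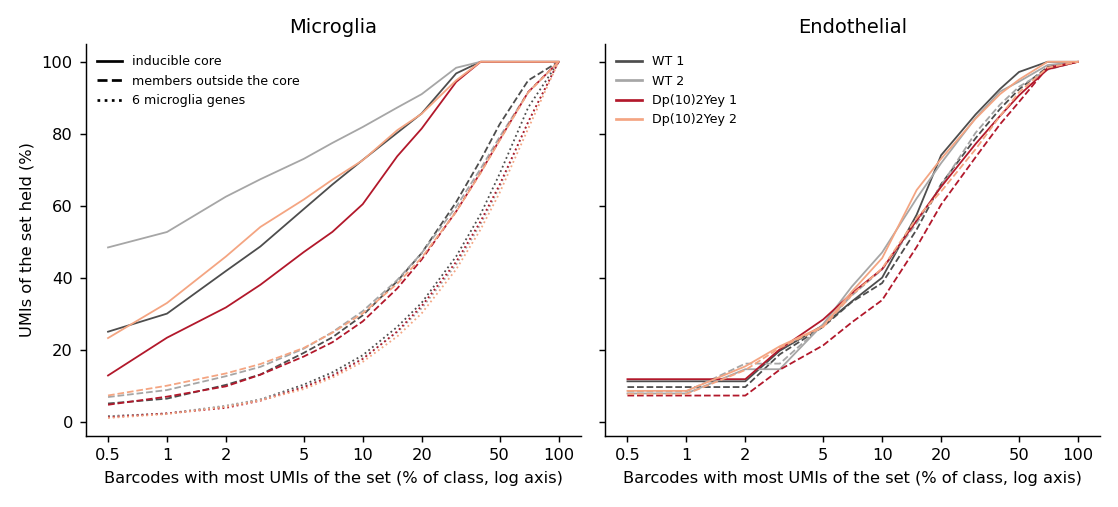
Share of the UMIs of a gene set (percent) held by the richest barcodes of microglia (left) and endothelial cells (right), against the percent of barcodes counted from the richest down (log axis), one colour per library, with solid lines for the core, dashed lines for members outside it and dotted lines for the 6 microglia-defining genes. The richest 1% of microglia hold 23.4 to 52.8% of the core and 2.24 to 2.42% of the defining genes.

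At a lower bar of 3 core genes, the share of microglia was 4.18, 1.86, 2.68 and 2.93% (13, 10, 10 and 23 barcodes), and the genotypes overlapped. After each barcode was thinned to 1000 UMIs, the shares were 1.08, 0.77, 0.27 and 0.65% (3, 4, 1 and 5 barcodes), and both Dp(10)2Yey libraries were below both WT libraries. Oligodendrocytes, which should lack most of these genes, stood at 0 to 0.45% with median depths of 4360 to 5047 UMIs, against 3636 to 4419 in microglia. In endothelial cells the same bar was met by 35.8, 36.7, 32.1 and 31.0% at median depths of 1791 to 2342 UMIs, and by 15.2, 5.26, 10.5 and 9.84% after thinning. Both Dp(10)2Yey libraries were below both WT libraries before thinning and overlapped them after it, and the endothelial share was above the microglial share in every library. With 1 core gene as the bar the share was 32.2 to 35.7% in microglia and 40.2 to 46.2% in oligodendrocytes, so a single core UMI marked no class. Xaf1 alone was at 132 and 113 CPM in WT and 101 and 108 CPM in Dp(10)2Yey in oligodendrocytes, most of their core level of 146 and 135 CPM in WT and 126 and 143 CPM in Dp(10)2Yey. As a gauge of free RNA, C1q genes of microglia were in oligodendrocytes at 0.171 to 2.07% of their microglial level.

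Removing the richest barcodes changed the comparison of the genotypes. Without all barcodes of at least 6 core genes (15, 22, 10 and 25), the members stood at 929 and 774 CPM in WT and 728 and 908 CPM in Dp(10)2Yey over all barcodes. Dp(10)2Yey 2 was then above WT 2, and the log2 ratio was -0.057. Of 39 members tested, 25 were below 0 with a median of -0.067, and 10 were lower in both Dp(10)2Yey libraries (13.7% of all genes) and 2, Oasl2 and Samd9l, were higher (12.7%). In microglia the members stood at 1205 and 1107 CPM in WT and 1095 and 1139 CPM in Dp(10)2Yey, and the core at 199 and 158 against 158 and 193 CPM. There 13 of 28 were below 0, with a median of 0.0053. Both Dp(10)2Yey libraries were lower for 7 microglial members (15.2% of all genes) and higher for 2, Ifi27 and Xaf1 (14.7%). The lower ones were Eif2ak2 (-0.43 ± 0.26), Irf9 (-0.58 ± 0.24), Parp14 (-0.30 ± 0.21), Psmb8 (-0.19 ± 0.14), Rtp4 (-1.25 ± 0.44), Slfn2 (-0.19 ± 0.21) and Trim30a (-0.48 ± 0.17). Of these only Rtp4 is in the core. Ifit1 was at 5.74 and 2.63 CPM in WT and 3.24 and 0.929 CPM in Dp(10)2Yey, from 16, 17, 16 and 8 UMIs, so that Dp(10)2Yey 1 exceeded WT 2. The log2 fold change of Ifit1 was -1.03 ± 0.68. This removal was chosen after the data were seen. It selects barcodes by core genes, Ifit1 among them, so the values of the core without them are a description.

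Interferon-stimulated genes outside the list were higher in the same barcodes. The sum of 81 other such genes, none of which was used to choose the barcodes, was on average 179.9, 275, 126 and 179 UMIs per 10000 in microglia with at least 6 core genes. In the rest of the microglia it was 27.3, 26.8, 28.6 and 29.2. The rich barcodes were higher in each of the 4 libraries. Of 61 genes with at least 10 UMIs in microglia, 20 were higher in the rich barcodes of all 4 libraries and 4 in none. These counts rest on 2, 4, 1 and 5 rich barcodes. No count over all genes is set beside them, so they are a description. Ccl12, a chemokine for monocytes, was at 4805, 13779, 842 and 3969 CPM against 232, 296, 235 and 425 in the rest. Endothelial markers stood at 5.77, 6.17, 2.81 and 1.75 UMIs per 10000 against 4.70, 3.69, 3.23 and 3.92, and genes induced by dissociation at 37.7, 356, 96.8 and 499.8 against 455, 465, 425 and 491. Border macrophage markers stood at 1.24, 0.372, 9.82 and 2.62 against 1.69, 1.24, 1.36 and 1.38, higher in both Dp(10)2Yey libraries, and neutrophil and monocyte markers at 0, 4.24, 0 and 5.52 against 1.51, 1.97, 1.76 and 1.56. None of these 4 lists was higher in the rich barcodes of all libraries at this bar. At the bar of 3 core genes, neutrophil and monocyte markers were higher in all 4 libraries, at 3.53, 10.3, 2.95 and 2.58 against 1.42, 1.83, 1.72 and 1.56. So were microglial markers, at 755, 717, 738 and 764 against 664, 707, 679 and 707. Median UMIs per barcode were higher as well, at 4271, 5569, 7541 and 5314 against 3579, 4173.5, 4347 and 4097. The part of depth or of any of these lists in the pattern was not tested.

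**Figure D5:**
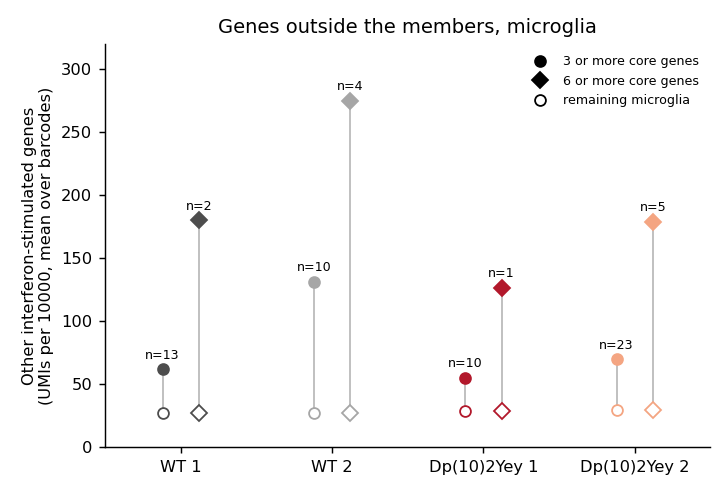
UMIs per 10000 of interferon-stimulated genes outside the member list averaged over microglia with at least 3 core genes (filled circles) or at least 6 (filled diamonds) and over the remaining microglia (open symbols), by library, with n the number of rich barcodes. Diamonds lie at 126 to 275, filled circles at 54.7 to 131 and open symbols at 26.7 to 29.2.

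Genes whose level followed the core most closely over single microglia included Rnf213 (mean Pearson r over the 4 libraries 0.22), Irgm1 (0.18), Ccl12 (0.16), Fgl2 (0.15), H2-D1 (0.15), Phf11b (0.14), Lyz2 (0.14), Cd52 (0.13) and B2m (0.13), among 8901 genes outside the list. These values describe 311 to 785 barcodes per library that share their library and differ in depth, and in counts this sparse a weak correlation is no finding. Rnf213, Irgm1, Ccl12 and Phf11b were among the other interferon-stimulated genes.

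The ligands were almost undetected. Ifna1, Ifna2, Ifna4 and Ifna5 had 0 UMIs in every library, which allows up to 3 UMIs of each per library. Ifnb1 had 0 and 2 UMIs in WT and 1 and 2 UMIs in Dp(10)2Yey, all in microglia, and Ifng 0 and 0 UMIs in WT and 5 and 4 UMIs in Dp(10)2Yey. None of the Ifng UMIs lay in microglia. T cells and NK cells numbered 3 and 2 barcodes in WT and 6 and 11 in Dp(10)2Yey, and their part in the Ifng counts was not tested. The receptor genes of type I interferons and of interferon gamma had small fold changes in microglia. The log2 fold change was -0.17 ± 0.22 for Ifnar1, -0.19 ± 0.14 for Ifnar2, -0.12 ± 0.13 for Ifngr1 and 0.06 ± 0.16 for Ifngr2. Of 29 signalling genes tested in microglia, 0 passed an adjusted p of 0.01 by edgeR and 0 had an unadjusted p under 0.05.

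Among interferon-stimulated genes outside the list, 47 were tested in microglia and 27 were below 0, where 49.6% of all genes were. Of the 47, 0 passed an adjusted p of 0.01 by edgeR or DESeq2, where 0.011% of all genes did by edgeR. At an unadjusted p under 0.05, 2 were lower (1.55% of all genes) and 0 higher (1.53%). These were Slfn5, a relative of Slfn2, at -1.07 ± 0.43 (adjusted p = 0.999683 by edgeR), and the ADP-ribosyltransferase Parp10 at -1.01 ± 0.36. Over all barcodes 60 were tested and 42 were below 0, where 51.2% of all genes were. Of the 60, 0 passed the adjusted threshold. There 4 were lower (Gbp4, Slfn5, Ly6a and Iigp1; 1.72% of all genes) and 1 higher (Ifitm1; 1.1%) at an unadjusted p under 0.05. These genes come from the same libraries and the same rich barcodes as the members and are not independent of them.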

How the data were processed

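The authors deposited raw UMI counts per gene and barcode for the barcodes that Cell Ranger 3.0.2 called as cells, mapped to mm10 (GRCm38). Every deposited barcode held at least 500 UMIs, and no profile of empty barcodes was used here. From these counts, barcodes with at least 200 genes were kept (183 were not), and 32 barcodes with over 20% hemoglobin UMIs were removed. Scrublet in scanpy 1.11.5 called 60 doublets (0.960%), which were kept in the main results. Clustering in Seurat 5.3.0 (R 4.3.3) used 2000 variable genes, 50 dimensions and a resolution of 0.2. A total of 18 members were among the clustering genes. Microglia are 2 clusters. The smaller (446 barcodes) was named from its markers, and the larger (1561), with too few markers among its top genes, was joined to it after the data were seen because its median barcode held all 6 defining genes.

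UMIs were summed per library and class. Genotypes were compared over the 4 libraries with the edgeR 4.0.16 quasi-likelihood test (TMM scaling, its default filter on low counts, Benjamini-Hochberg adjustment over all genes, threshold 0.01). DESeq2 1.42.0 and a replicate block were alternatives. Fits were tested on simulated counts. CPM are unscaled unless called normalised or scaled. With 1 library per mouse, 2 mice per genotype were processed over 2 days, 1 of each genotype per day. The labels do not tie replicate numbers to days. UMIs count molecules, so the limit given for a count of 0 covers counting error only.

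The members and gene lists were chosen with earlier results of these data known. Values per library are given for Ifit1, for members with at least 40 UMIs in microglia or in their highest class, and for the pair Ifit3 and Ifit3b. Outside the list, fold changes are given for Ifnar1, Ifnar2, Ifngr1 and Ifngr2 and for genes with an unadjusted p under 0.05 in microglia. Mean correlations are given for genes best correlated with the core, among the 10 highest. One item of these lists is not reported here. Promoter sequences come from RefSeq (GRCm38.p6), and promoters were printed for Ifit1 and core members with many UMIs.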

Additional observations from a re-analysis of the deposited data

How the results depend on the processing

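Of the values recomputed under an alternative, 173 stayed within the limits set for a change, 42 moved and 3 reversed in sign. With the inducible core alone the log2 ratio of the members was -0.43 in microglia (from -0.13), 0.0078 in endothelial cells (from -0.069) and -0.47 over all barcodes (from -0.26). Thinned to 1000 UMIs, the endothelial ratio was 0.11. Over all barcodes it was -0.094 after thinning, -0.073 without barcodes of at least 4 core UMIs, -0.057 without barcodes of at least 6 core genes and -0.046 without the endothelial, ependymal and Ttr-led classes, the last 2 chosen after the data were seen. Leaving out 1 library at a time gave -0.21 to -0.051 in microglia, -0.10 to -0.035 in endothelial cells and -0.45 to -0.089 over all barcodes.

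Members below 0 numbered 8 of 15 in microglia, 3 of 5 in endothelial cells and 16 of 26 over all barcodes after thinning. Without barcodes of at least 4 core UMIs they numbered 4 of 8 in endothelial cells and 23 of 34 over all barcodes, and without those of at least 6 core genes, 7 of 14 in endothelial cells. Fewer members passed the filter in these settings. Leaving out 1 library gave 18 to 26, 14 to 21 and 31 to 37. The Ifit1 fold change over all barcodes was -1.03 ± 0.68 without barcodes of at least 6 core genes and -0.64 after thinning. It was -1.14 without the 3 barcodes of at least 10 Ifit1 UMIs, which were chosen by the gene compared and lie in WT only. These settings were added after the data were seen. With 1 library left out the Ifit1 fold change was -2.24 to -1.38. In endothelial cells it was -1.11 ± 0.78 without barcodes of at least 6 core genes and -1.12 to 0.065 with 1 library left out, reversing to 0.065 without Dp(10)2Yey 2. The cause was not tested.

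The mean share of member UMIs in the richest 1% of microglia was 12.9%, or 34.8% for the core alone and 11.0 to 14.2% with 1 library left out. The mean share of microglia with at least 3 core genes was 2.91%, or 9.05% at 2 genes, 1.46% at 4 genes, 0.694% after thinning and 2.49 to 3.26% with 1 library left out.

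The number of genes past an adjusted p of 0.01 was 1 in microglia, and 21 without the filter, 0 by DESeq2, 0 without doublets, 7 at 0.05 and 1 to 18 with 1 library left out. In endothelial cells it was 0, and 23 without the filter and 3 to 35 with 1 library left out. Over all barcodes it was 0, and 88 without the filter, 4 by DESeq2 and 1 to 14 with 1 library left out. None of the interferon-stimulated genes outside the list was past it in microglia or over all barcodes in any of these settings. Of those genes, 27 of 47 were below 0 in microglia, and 41 of 73 without the filter.

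Same-numbered libraries deviated together with a correlation of 0.0023 over all barcodes and between -0.048 and 0.36 over the classes, the highest being 0.36 in the Ttr-led cluster, 0.24 in the border macrophage and neutrophil class, 0.23 in oligodendrocytes and 0.16 in microglia. With only 2 pairs, and labels that do not tie the numbers to the days, the replicate numbers were not taken to pair the mice. With a replicate block 26 genes passed in microglia, 36 of 1401 in the Ttr-led cluster (from 0) and 0 in endothelial cells and over all barcodes, the Ifit1 fold change over all barcodes was -1.82, and 19, 18 and 37 members were below 0.

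Depth limits the members even in microglia, the class with the most barcodes, where 13 of the 44 had fewer than 40 UMIs and Ifi44 had 0.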
